A study of Mus musculus with 4 samples.

Results

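Cyclin-dependent kinase inhibitors are 7 genes of the mouse that encode proteins which hold cyclin-dependent kinases (Cdks) inactive. They were chosen by gene symbol from the 36144 gene names of the count table, and all 7 passed the filter on low counts (more than 10 counts in at least 2 libraries), as did 13979 names in all. The cultures were colonoids, the stem cells and progeny of mouse colonic epithelium grown as organoids in Matrigel, from a male mouse aged 24 weeks. They were sequenced at passage 3 either untreated or with 2 mM sodium butyrate at 48 h (day 2) and 72 h (day 3), each of these 4 conditions being represented by 1 library. The genotype is wild type in the sample labels and Hes1-GFP, a Notch reporter, in the study's own description of this experiment. All 4 conditions shared 1 medium, with EGF, Noggin, R-spondin, the B27 and N2 supplements, the GSK3 inhibitor CHIR99021 and the kinase inhibitor Y-27632. By the study's account 1 mouse gave all the cultures, so the values describe these 4 cultures and have no replicate check.

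The inhibitors fall into 2 families. The Cip/Kip proteins p21 (*Cdkn1a*), p27 (*Cdkn1b*) and p57 (*Cdkn1c*) bind cyclin and Cdk together and block above all the Cdk2 complexes that start DNA replication. The INK4 proteins p16 (*Cdkn2a*), p15 (*Cdkn2b*), p18 (*Cdkn2c*) and p19 (*Cdkn2d*) bind Cdk4 and Cdk6 alone and keep the D cyclins from them, so that the retinoblastoma protein continues to hold E2F in check. In intestinal epithelium p21 and p27 are known from cells that leave the cycle as they move out of the crypt. Butyrate is an inhibitor of class I histone deacetylases as well as a fuel of colonocytes, and *Cdkn1a* is a standard target gene of such inhibitors.

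Library totals were between 20790225 and 24207840 counts, and 3 counts, the floor for detection, were worth between 0.124 and 0.144 CPM (counts relative to the library total). Mitochondrial genes took between 14.1% and 18.4% of the counts. The 9 epithelial marker genes were expressed in every library, with *Epcam* between 25463 and 33929 counts. Markers of cells outside the epithelium were low. The 7 mesenchymal markers summed to between 82.1 and 127 normalised counts per library. *Pdgfrb* was the highest of them (55 to 105 counts) and *Col3a1* was at 0 throughout. The 4 endothelial markers summed to between 32.7 and 56.3, with *Pecam1* the highest (20 to 45 counts). The 7 immune markers summed to between 41.7 and 71.3, with *Itgam* the highest (36 to 48 counts) and *Adgre1* at 0 throughout. In these bulk libraries, fewer cells of a type and less RNA per cell cannot be told apart.

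Per kb of exon, which allows levels to be compared between genes, *Cdkn1a* was the most abundant inhibitor transcript in each library. At 48 h the level was 740 normalised counts per kb without butyrate and 1438 with it, and at 72 h it was 960 and 1099. *Cdkn2b* came next with 628, 807, 957 and 558 in the same order, so that the 2 were nearly equal in untreated colonoids at 72 h on this scale, though not per kb of the longest transcript (1641 against 957). *Cdkn1b* followed with between 305 and 473 per kb, below every value of *Cdkn2b*. *Cdkn1c* (61.2 to 150), *Cdkn2c* (73.6 to 124) and *Cdkn2d* (79.0 to 97.9) had overlapping ranges, and their order differed between libraries. *Cdkn2a* was the lowest, with 4.36 to 40.5 per kb, under 2% of the summed inhibitor transcripts in each library. The order of the means over the 4 libraries was the same per kb of the longest transcript, although *Cdkn1a* then came to 1809 per kb in place of 1059.

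**Figure D1:**
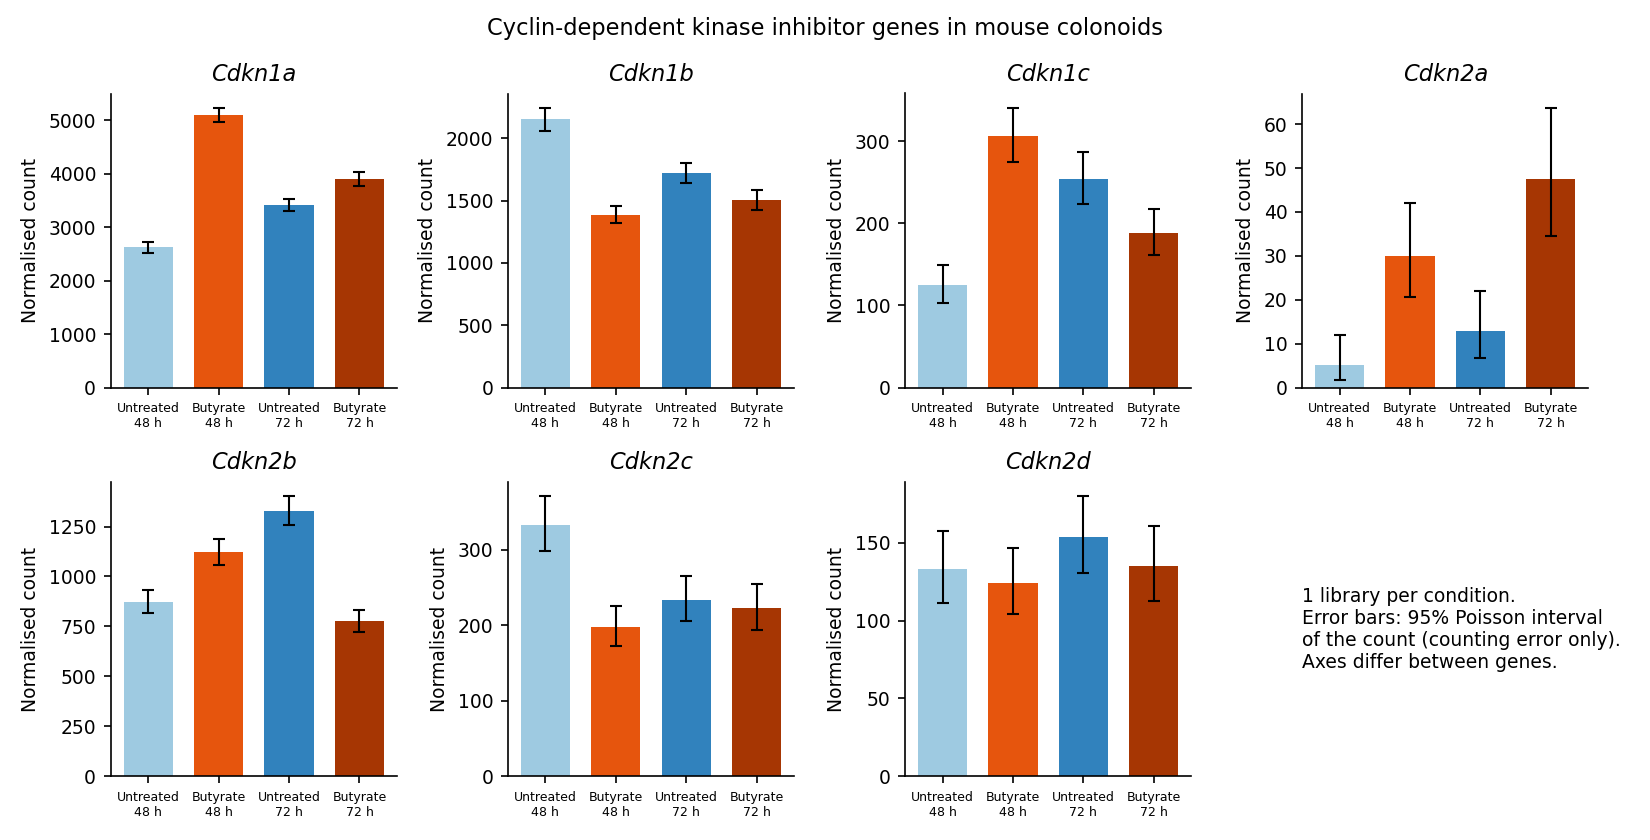
Normalised counts of each inhibitor gene in the 4 libraries (bars, 1 library per condition, axes from 0 and different for each gene) with 95% Poisson intervals of the count as error bars. *Cdkn2a* is higher with butyrate at both times, *Cdkn1b* is lower at both, and *Cdkn1c* and *Cdkn2b* are higher at 48 h and lower at 72 h.

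At 48 h, 4 of the 7 genes were higher with butyrate and 3 lower, where 48.7% of all genes tested were higher and 51.3% lower. At least 2-fold differences were found for *Cdkn1c* and *Cdkn2a*, which is 2 of 7, where 6.94% of all genes tested were at least 2-fold higher. None of the 7 was at least 2-fold lower, against 3.08% of all genes tested. The median log2 fold change of the 7 was 0.36 (0.13 without *Cdkn2a*, which has few counts), and that of all genes tested was −0.01. At 72 h, 2 were higher and 5 lower, where 50.3% of all genes tested were higher and 49.7% lower. The median was −0.19 against 0.00 for all genes. Only *Cdkn2a* was at least 2-fold higher, where 4.53% of all genes were, and none was at least 2-fold lower, against 3.78%. The 95% intervals given below with each gene cover counting error only, since the spread between cultures was not measured.

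*Cdkn1a* on chromosome 17 (ENSMUSG00000023067.14, GRCm38, 29090976 to 29100727, plus strand, 5 annotated transcripts) encodes p21, which binds Cdk2 complexes and is the classical arrest gene downstream of p53. Its counts at 48 h were 2571 without butyrate and 5630 with it, and those at 72 h were 3456 and 3614. The butyrate library at 48 h was the highest of the 4 and the untreated library at 48 h the lowest. The log2 fold change was 0.96 (0.89 to 1.03) at 48 h, a 1.94-fold higher level, and 7.35% of all genes tested had a larger value. At 72 h it was 0.19 (0.13 to 0.26), or 1.14-fold, and 26.9% of genes tested had a larger value. Both arms differed between the times. Untreated colonoids had 1.30-fold more *Cdkn1a* at 72 h than at 48 h, whereas those on butyrate had 1.31-fold less. An annotated transcript of unknown coding potential lies on the opposite strand of the gene, and whether the counting used strand is not given in the sources used here.

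**Figure D2:**
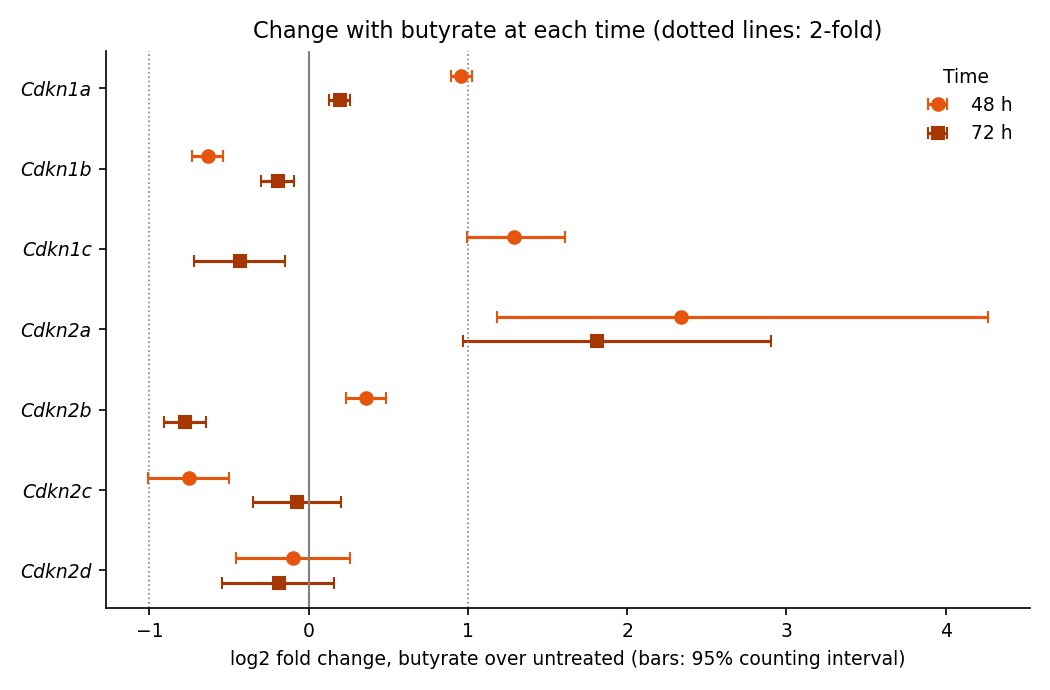
Log2 fold change of butyrate over untreated for each inhibitor gene at 48 h (circles) and 72 h (squares), with exact 95% counting intervals as bars and dotted lines at 2-fold. The interval of *Cdkn2a* is the widest, from 1.18 to 4.26 at 48 h, and the values of *Cdkn1c* and *Cdkn2b* lie on opposite sides of 0 at the 2 times.

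*Cdkn1b* on chromosome 6 (ENSMUSG00000003031.14, 134920401 to 134925513, plus strand, 2 exon blocks) encodes p27, which restrains Cdk2 in quiescent and differentiating cells. The untreated libraries held 2105 counts (48 h) and 1743 (72 h), and the butyrate libraries 1529 and 1392. Both butyrate libraries lay below both untreated libraries after scaling (1387 and 1503 against 2152 and 1721 normalised counts). The log2 fold change was −0.63 (−0.73 to −0.54) at 48 h, with 7.68% of all genes tested lower still, and −0.19 (−0.30 to −0.09) at 72 h. The direction was thus opposite to that of *Cdkn1a* at both times, and both genes were closer to untreated at 72 h. In untreated colonoids *Cdkn1b* was 1.25-fold lower at 72 h than at 48 h.

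*Cdkn1c* on chromosome 7 (ENSMUSG00000037664.13, 143458339 to 143461050, minus strand) encodes p57, an imprinted gene expressed mainly from the maternal allele and known from quiescent stem cells. There were 122 counts without butyrate at 48 h against 338 with it, and 257 against 174 at 72 h. The highest library was butyrate at 48 h and the lowest untreated at 48 h, as for *Cdkn1a*. The log2 fold change was 1.29 (0.99 to 1.61) at 48 h, or 2.45-fold higher, with 4.76% of all genes tested above it. At 72 h it was −0.43 (−0.72 to −0.15), and 12.4% of genes tested were lower still. In untreated colonoids the level at 72 h was 2.03 times that at 48 h, whereas it was 1.63-fold lower at 72 h with butyrate. An annotated antisense gene overlaps the span of *Cdkn1c*, and whether they share exon sequence was not tested. Reads from any shared sequence cannot be told apart if strand was not used.

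Promoter windows of RefSeq (250 bases before to 50 bases from the start of transcription, GRCm38.p6) were found for 6 of the 7 genes, 9 windows in all, and *Cdkn1c* had none. They are shown for 3 genes whose direction was the same at both times, *Cdkn1a* and *Cdkn2a* (higher) and *Cdkn1b* (lower). Capitals mark the GC box (GGGCGG, or CCGCCC for the other strand), the core of the motif that Sp and Klf factors bind. The first window lies at chr17:29093519-29093818 on the plus strand, at the downstream of the 2 *Cdkn1a* starts. The second lies at chr6:134920151-134920450 on the plus strand. The last 2 are on the minus strand, at chr4:89294570-89294869 for the upstream start of *Cdkn2a*, from which p19Arf is made, and at chr4:89282143-89282442 for the start of p16.
Cdkn1a: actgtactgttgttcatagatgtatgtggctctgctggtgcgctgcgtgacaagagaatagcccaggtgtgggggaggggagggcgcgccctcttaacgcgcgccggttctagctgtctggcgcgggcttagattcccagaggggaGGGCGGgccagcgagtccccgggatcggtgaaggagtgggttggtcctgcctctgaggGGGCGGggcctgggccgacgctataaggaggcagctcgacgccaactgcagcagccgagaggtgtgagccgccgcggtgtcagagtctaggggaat
Cdkn1b: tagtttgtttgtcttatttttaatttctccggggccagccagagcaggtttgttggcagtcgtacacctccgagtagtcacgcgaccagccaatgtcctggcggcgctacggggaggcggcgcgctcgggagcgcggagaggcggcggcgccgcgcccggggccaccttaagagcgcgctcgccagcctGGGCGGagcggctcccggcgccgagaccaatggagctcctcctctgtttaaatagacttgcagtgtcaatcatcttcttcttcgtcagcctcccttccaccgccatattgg
Cdkn2a p19Arf start: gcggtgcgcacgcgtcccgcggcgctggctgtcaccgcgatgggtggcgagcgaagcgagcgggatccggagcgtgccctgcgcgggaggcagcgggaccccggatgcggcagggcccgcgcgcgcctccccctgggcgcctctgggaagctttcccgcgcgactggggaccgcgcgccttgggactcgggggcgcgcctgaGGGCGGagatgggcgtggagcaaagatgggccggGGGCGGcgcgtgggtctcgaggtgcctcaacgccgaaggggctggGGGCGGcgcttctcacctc
Cdkn2a p16 start: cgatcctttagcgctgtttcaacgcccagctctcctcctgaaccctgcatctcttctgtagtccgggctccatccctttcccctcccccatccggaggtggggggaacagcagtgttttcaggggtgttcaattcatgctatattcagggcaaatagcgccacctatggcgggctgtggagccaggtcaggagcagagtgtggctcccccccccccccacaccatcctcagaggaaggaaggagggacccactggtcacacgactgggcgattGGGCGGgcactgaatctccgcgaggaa

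The *Cdkn1a* window held 2 GC boxes and a TATA-like run (TATAA), and the upstream *Cdkn1a* start held no GC box. *Cdkn1b* held 1 GC box and 3 CCAAT boxes. The *Cdkn2a* windows held 3 and 1 GC boxes, and *Cdkn2b* held 1. The 2 windows of *Cdkn2c* held 4 and 0. The window of *Cdkn2d*, whose intervals included 0 at both times, held 5 GC boxes, the most of the 9. Of the 32851 windows of all genes, 35.7% held at least 1 GC box, 19.5% at least 2, 24.9% TATAA (or TTATA) and 37.4% CCAAT (or ATTGG). GC content of the 9 windows was between 44% (the *Cdkn2c* window without a GC box) and 77% (the p19Arf start), with 64.7% in the printed *Cdkn1a* window, and the median of all windows was 52.7%. A match of these letters describes the sequence and was not tested as a site.

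*Cdkn2a* on chromosome 4 (ENSMUSG00000044303.6, 89274471 to 89294653, minus strand) encodes both p16, which binds Cdk4 and Cdk6, and p19Arf, which shields p53 from Mdm2. The 2 start from separate first exons and share the following exons, and the gene counts do not separate them. The untreated libraries held 5 (48 h) and 13 (72 h) counts of *Cdkn2a* and the butyrate libraries 33 and 44, all above the floor of 3 counts. Both butyrate libraries were above both untreated libraries. At 48 h the log2 fold change was 2.34 (1.18 to 4.26), and at 72 h 1.81 (0.97 to 2.91). Only 1.26% and 1.30% of all genes tested had a larger value at the respective times, and the lower bounds of the intervals correspond to changes near 2-fold. At its highest, in the butyrate library at 72 h, the gene had 2.12 CPM. Its normalised counts of 5.11, 29.9, 12.8 and 47.5 over the 4 libraries (untreated and butyrate at 48 h, untreated and butyrate at 72 h) compare with immune marker sums of 56.2, 41.7, 63.2 and 71.3 in the same order. *Itgam* was between 36 and 48 counts, and *Csf1r* had 16 counts in the butyrate library at 72 h and at most 2 elsewhere. The part of such cells in the *Cdkn2a* counts was not tested.

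*Cdkn2b*, which lies 11645 bases from *Cdkn2a* (ENSMUSG00000073802.5, chromosome 4, 89306299 to 89311039, minus strand, 1 annotated transcript), encodes p15, the INK4 protein induced by TGF-β. At 48 h, 854 counts were found without butyrate and 1236 with it, and at 72 h, 1347 and 718. The untreated library at 72 h was the highest and the butyrate library at 72 h the lowest. The log2 fold change at 48 h was 0.36 (0.23 to 0.49), and at 72 h it was −0.78 (−0.91 to −0.65), where 5.67% of all genes tested were lower still. The adjacent genes therefore shared a direction at 48 h and had opposite directions at 72 h. In untreated colonoids *Cdkn2b* was 1.52-fold higher at 72 h than at 48 h, and with butyrate it was 1.45-fold lower.

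*Cdkn2c* (ENSMUSG00000028551.14, chromosome 4, 109660876 to 109667189, minus strand) encodes p18, an INK4 protein that E2F induces in cycling cells. The counts without butyrate were 326 (48 h) and 237 (72 h), and those with butyrate 218 and 206. The untreated library at 48 h stood above the other 3. The log2 fold change was −0.75 (−1.01 to −0.50) at 48 h, with 5.54% of genes tested lower still. At 72 h it was −0.07 (−0.35 to 0.20), an interval that included 0, so that no difference was resolved. *Cdkn2d* (ENSMUSG00000096472.2, chromosome 9, 21288410 to 21291407, minus strand) encodes the p19 of the INK4 family, distinct from p19Arf. It varied the least of the 7, with the highest library 1.24 times the lowest. Counts were 130 (48 h) and 156 (72 h) in the untreated libraries and 137 and 125 in the butyrate libraries. Its log2 fold changes of −0.10 (−0.45 to 0.26) and −0.19 (−0.54 to 0.16) both had intervals that included 0, so that no difference could be detected with these counts.

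Over both times, *Cdkn1a* and *Cdkn2a* were higher with butyrate, *Cdkn1b* was lower, and *Cdkn1c* and *Cdkn2b* were higher at 48 h and lower at 72 h. *Cdkn2c* and *Cdkn2d* had values below 0 at both times, with intervals that included 0 for *Cdkn2c* at 72 h and for *Cdkn2d* at both. Of all genes tested, 30.4% were higher at both times, 31.3% lower at both and 18.4% higher and then lower. The change with butyrate at 72 h minus that at 48 h was −0.76 (−0.86 to −0.67, counting error only) for *Cdkn1a*, −1.72 (−2.13 to −1.31) for *Cdkn1c* and −1.14 (−1.32 to −0.96) for *Cdkn2b*. It was 0.44 (0.30 to 0.58) for *Cdkn1b* and 0.68 (0.31 to 1.04) for *Cdkn2c*. For *Cdkn2a* (−0.53, −2.15 to 1.09) and *Cdkn2d* (−0.09, −0.58 to 0.39) the interval included 0. With single cultures, time and culture cannot be told apart in these differences.

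From 48 h to 72 h in untreated colonoids 5 of the 7 genes were higher, where 50.5% of all genes tested were. *Cdkn1c* and *Cdkn2a* were at least 2-fold higher, where 2.66% of all genes tested were, although the interval of *Cdkn2a* (1.18, −0.25 to 3.17) included 0 and *Cdkn1c* (1.02, 0.71 to 1.35) was 0.94 when scaled to total counts. None was at least 2-fold lower, against 1.82% of genes. In butyrate-treated colonoids over the same interval 4 were higher and 3 lower, where 48.7% of all genes tested were higher and 51.3% lower. None passed 2-fold in either direction, where 3.67% of genes were at least 2-fold higher and 4.95% at least 2-fold lower. *Cdkn1a*, *Cdkn1c* and *Cdkn2b* were higher at 72 h without butyrate and lower at 72 h with it. These comparisons use the same 4 libraries as those of butyrate with untreated and add no independent data.

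Summed over the 7 genes, the inhibitor transcripts at 48 h came to 2115 normalised counts per kb without butyrate and 2878 with it, and at 72 h to 2616 and 2288. The log2 ratio of the sums was 0.44 at 48 h and −0.19 at 72 h, and without *Cdkn1a* 0.07 and −0.48. *Cdkn1a* made up 35.0% (48 h) and 36.7% (72 h) of the sum without butyrate, and with butyrate 1438 of 2878 per kb at 48 h and 48.0% at 72 h. These sums and shares depend on the length used. Per kb of the longest transcript *Cdkn1a* made up 47.4% (48 h) and 49.3% (72 h) without butyrate, and 62.5% and 60.5% with it. The share of *Cdkn1b* was 22.4% and 10.6% at 48 h, and 14.5% and 14.4% at 72 h. The INK4 genes summed to 841 and 985 per kb at 48 h, and to 1153 and 767 at 72 h, the latter carried mostly by *Cdkn2b*.

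**Figure D3:**
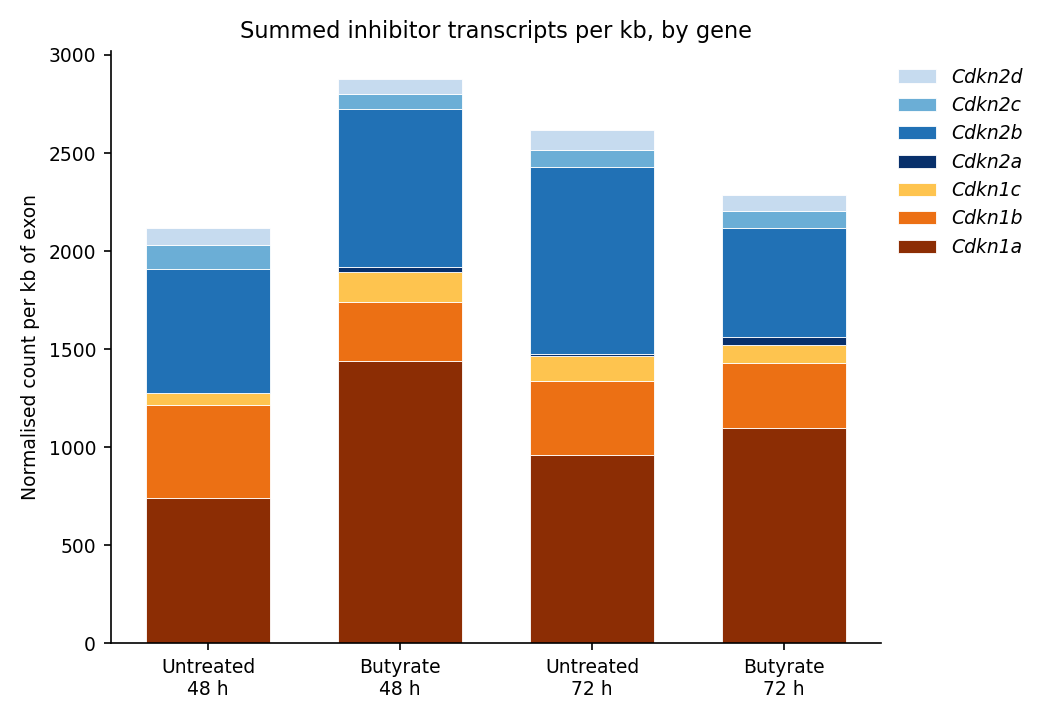
Normalised counts per kb of exon of the 7 inhibitor genes, stacked, in each of the 4 libraries. *Cdkn1a* makes up 35.0% (48 h) and 36.7% (72 h) of the sum without butyrate and 48.0% with it at 72 h, and *Cdkn2b* is the next largest layer. Lengths are unions of exons, and the share of *Cdkn1a* is larger per kb of the longest transcript.

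Differences in the genes around the inhibitors are given as log2 fold changes of butyrate over untreated at 48 h and 72 h, in that order. Direction counts go by the sign of the value, also where its interval includes 0. Of all genes tested, 48.7% were higher at 48 h and 50.3% at 72 h. Of the 4 kinases that the inhibitors bind, 1 was higher with butyrate at 48 h and all 4 at 72 h. *Cdk4*, the D-cyclin kinase that INK4 proteins bind, differed by −0.52 (−0.58 to −0.46) and 0.18 (0.12 to 0.24), and *Cdk6* by −0.15 and 0.37. *Cdk2*, the main target of p21 and p27, differed by −0.43 and 0.21, and the mitotic kinase *Cdk1* by 0.16 and 0.23. Of 8 partner cyclins, 6 were higher at 48 h and 7 at 72 h, with medians of 0.31 and 0.37. Intervals included 0 for *Ccnb1* at both times (0.01 and 0.10) and for *Ccna2* at 72 h (−0.07). The D cyclins *Ccnd1* (0.84 and 1.09) and *Ccnd2* (0.87 and 0.67), which activate Cdk4 and Cdk6, and the E cyclin *Ccne1* (0.86 and 0.47), which activates Cdk2, had the largest values. *Ccnd1* went from 4552 to 9208 counts at 48 h and from 4220 to 8213 at 72 h, and it was the only cyclin to pass 2-fold, at 72 h.

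Downstream, the 11 genes of the Rb and E2F families had medians of −0.01 and −0.04, with 5 higher and 6 lower at each time. By the smaller of the 2 values among genes of the same sign at both times, *E2f3* (0.37 and 0.26) and *Rbl2*, which encodes the pocket protein p130 of resting cells (−0.31 and −0.25), came first. Of the 13 proliferation genes, 8 were higher at 48 h, with a median of 0.02, and all 13 at 72 h, with a median of 0.36, where 50.3% of all genes tested were higher. *Mki67* differed by 0.06 (0.02 to 0.09) and 0.45 (0.42 to 0.49). *Rrm2*, a subunit of ribonucleotide reductase, differed by 0.35 and 0.36, and *Mcm3* of the replicative helicase by 0.22 and 0.47. Of the 13, only *Tk1*, thymidine kinase (0.13, −0.01 to 0.27), had an interval that included 0 at 72 h.

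Of 17 other p53 targets, 6 were higher at 48 h, as *Cdkn1a* was, and 11 were lower, with a median of −0.16. At 72 h 12 were higher and 5 lower, with a median of 0.14. *Gdf15*, a stress cytokine (0.95 and 0.79), and *Phlda3*, an inhibitor of Akt (0.68 and 0.86), came first by the same measure. *Mdm2*, the p53 ubiquitin ligase, differed by −0.28 and 0.21, *Ccng1* by −0.19 and 0.14, and *Plk2*, a polo-like kinase, was at least 2-fold lower at 48 h and differed by −0.51 at 72 h. These 3 were named after their values were seen. *Trp53* itself differed by −0.28 (−0.36 to −0.21) and 0.19 (0.12 to 0.27).

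Among 10 factors known to act at *Cdkn1a*, 4 were higher at 48 h and 7 at 72 h, with medians of −0.03 and 0.19. *Myc*, a repressor of *Cdkn1a* and *Cdkn2b*, differed by 1.36 (1.30 to 1.42) and 0.48 (0.38 to 0.58), from 2646 to 7657 counts at 48 h and from 1482 to 1890 at 72 h. The deacetylase gene *Hdac1* differed by 0.99 and 0.29. *Klf6* (−0.26 and −0.62) and *Klf4* (−0.05, interval −0.11 to 0.02, and −0.44), activators of *Cdkn1a*, were named after their values were seen, and the interval of *Klf4* at 48 h included 0. For p27, *Skp2*, the subunit of the ligase that marks p27 for destruction, differed by 0.24 (0.06 to 0.43) and 0.45 (0.23 to 0.67), and *Rbx1* of the same ligase by 0.18 and 0.31. In this list of 8, 5 were higher at 48 h and 6 at 72 h, with medians of 0.10 and 0.12.

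The 13 regulators of the *Cdkn2a* and *Cdkn2b* locus, most of them Polycomb genes, had medians of −0.09 and 0.01, with 4 higher at 48 h and 7 at 72 h. *Bmi1*, the Polycomb subunit known as a repressor of *Cdkn2a*, was lower, by −0.68 (−0.82 to −0.55) at 48 h and −0.23 (−0.36 to −0.11) at 72 h. Among the 13, 5 were lower at both times and 3 higher. Those higher were the Polycomb genes *Cbx7* (0.40 and 0.13), *Ring1* (0.40 and 0.20) and *Suz12* (0.08 and 0.45), named after their values were seen. *Ets1*, an activator of p16, differed by −0.24 and −0.55. In the TGF-β arm upstream of p15, 8 of 9 genes were tested and 4 were higher at 48 h and 5 at 72 h, with medians of −0.05 and 0.10. The receptor gene *Tgfbr2* differed by 0.43 and 0.39, and the ligand *Tgfb2*, with at most 18 counts in a library, by 1.01 (−0.24 to 2.62) and 0.67 (−0.42 to 1.90). The ligand *Tgfb1* had 162 counts without butyrate and 388 with it at 48 h, a difference of 1.08 (0.82 to 1.36), and differed by 0.18 (−0.11 to 0.46) at 72 h. The receptor gene *Tgfbr1* differed by −0.71 and −0.32. Both were named after their values were seen. *Smad7*, a feedback target of the pathway named after its values were seen, differed by −0.22 and −0.72, in the same direction as *Cdkn2b* at 72 h only.

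In the imprinted region around *Cdkn1c*, 7 of 9 listed genes were matched by symbol and all 7 were tested. Of these, 6 were higher with butyrate at each time, with medians of 0.24 and 0.20. The intervals of *Tssc4* (0.17 and 0.20) included 0 at both times. *Igf2*, with at most 32 counts in a library, differed by 1.07 (0.16 to 2.18) and 0.39 (−0.70 to 1.54), and *Kcnq1* by 0.33 and 0.30. *Phlda2*, named after its values were seen, went from 39 counts without butyrate to 144 with it at 48 h (log2 fold change 1.69, interval 1.19 to 2.26) and from 66 to 68 at 72 h (0.17, −0.34 to 0.68). Of 8 tested growth-arrest genes outside the inhibitor families, 4 were higher at 48 h and 3 at 72 h, with medians of 0.02 and −0.16, and *Ndrg1* (0.59 and 0.43) and *Cdkn3*, a phosphatase of Cdks (−0.49 and −0.26), came first by the smaller of their 2 values.

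**Figure D4:**
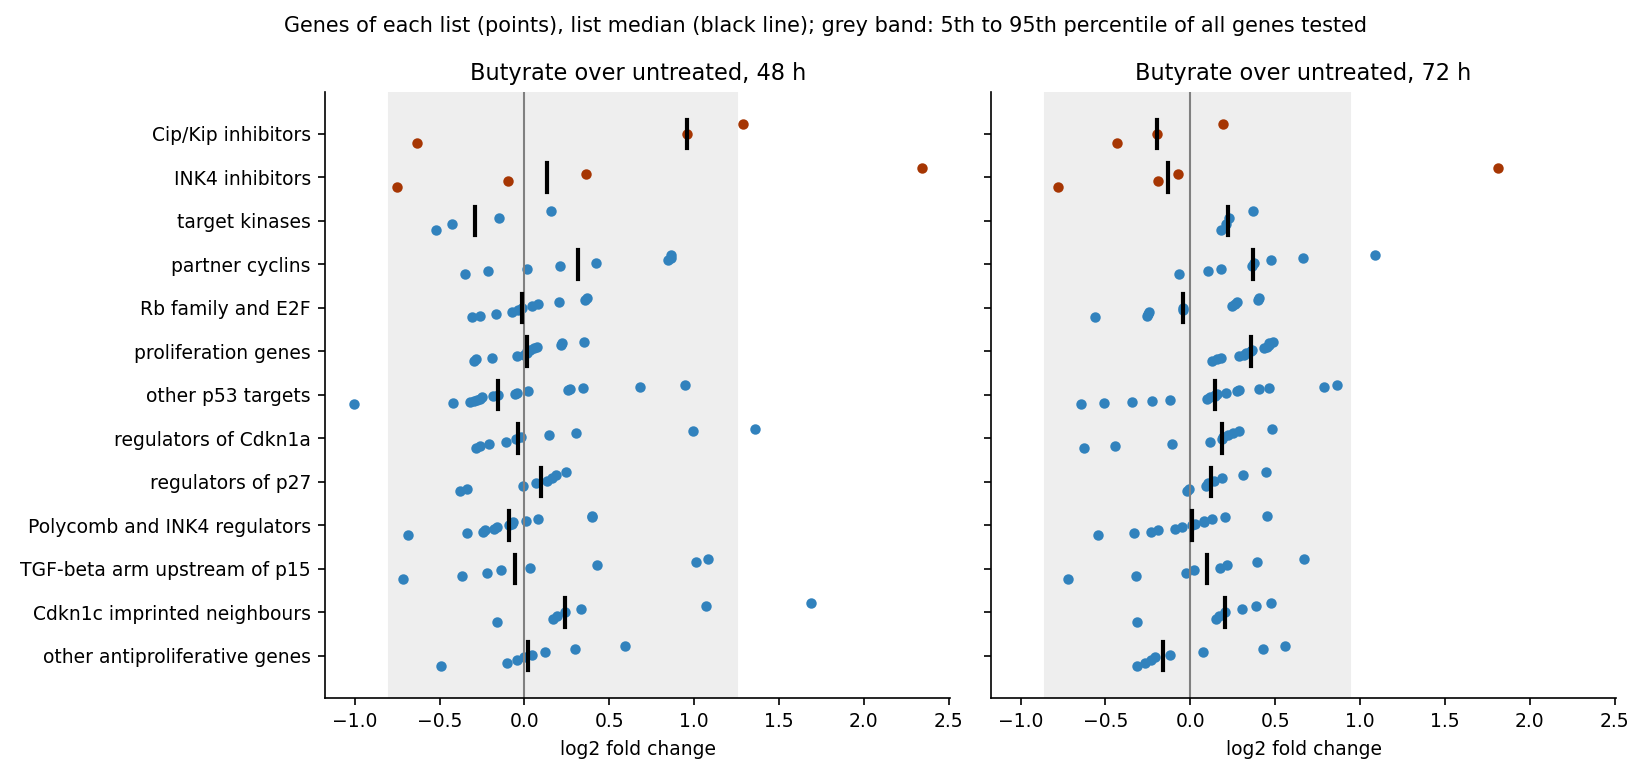
Log2 fold change of butyrate over untreated for each tested gene of the pathway lists (points, inhibitors in brown) at 48 h (left) and 72 h (right), with the list median as a black line and the 5th to 95th percentile of all genes tested as a grey band. *Cdkn2a* and *Cdkn1c* lie above the band at 48 h and *Cdkn2a* at 72 h, while the 13 proliferation genes lie to the right of 0 at 72 h.

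Markers of differentiation also differed between the libraries. Of 8 colonocyte markers, 7 were higher with butyrate at 48 h, with a median of 0.64, and all 8 were lower at 72 h, with a median of −0.57, the directions of *Cdkn1c* and *Cdkn2b*, although the intervals of *Aqp8*, a water channel, included 0 at both times. *Car1*, a carbonic anhydrase of colonocytes, differed by 1.14 and −0.88, and *Slc26a3*, a chloride exchanger, by 1.29 and −0.20. The sum of the 8 went from 90194 to 97870 normalised counts at 48 h and from 121384 to 70668 at 72 h. Much of it was *Ceacam1*, an adhesion molecule and the marker that was lower at 48 h, which went from 61945 to 38676 at 48 h and from 76587 to 44111 at 72 h. *Krt20*, a marker of differentiated surface cells that is also in the epithelial list, differed by 0.31 and −0.74. Of 6 stem cell markers 4 were lower at 48 h, with a median of −0.22, and all 6 were higher at 72 h, with a median of 0.66 and an interval that included 0 for *Olfm4*. Secretory markers were mixed at 48 h and mostly lower at 72 h. Of 7 goblet cell markers 4 were lower at 48 h and 6 at 72 h (medians −0.01 and −0.87), of 7 enteroendocrine markers 2 and 6 (0.04 and −0.79), and of the 3 tested tuft cell markers all had values below 0 at both times (−0.24 and −1.68), with intervals that included 0 for all 3 at 48 h. Of the 9 epithelial markers 5 were higher at 48 h and 8 lower at 72 h (0.07 and −0.17). At 48 h, intervals also included 0 for *Prom1* (stem), *Cdx1* (epithelial), *Spink4* and *Fcgbp* (goblet), and *Chga*, *Pyy* and *Gcg* (enteroendocrine). At 72 h they did so for *Spink4*, *Pax6* (−0.48, −1.06 to 0.08) and *Scg5*. These markers were named after their values were seen, and the part of such shifts in the inhibitor values was not tested.

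The genes most like each inhibitor over the 4 libraries were found among 10788 other genes with a mean of at least 100 normalised counts, by the root mean square difference of log2 levels after each gene's mean was subtracted. With 4 points, the measure describes these libraries only. *Rpp25* and *Mamld1* were among those closest to *Cdkn1a*, at 0.02 and 0.04, and *Noxo1*, *Fam83d* and *Hoxb3* came closest to *Cdkn1b*, each at 0.03. *Synpo*, *Ugdh* and *Ethe1* came closest to *Cdkn2b*, at 0.03 to 0.05, and *Lbh*, *Pif1* and *Epm2aip1* to *Cdkn2c*, at 0.03 to 0.06. *Cdkn1c* had the least close neighbours, *Cpne2*, *Hkdc1* and *Maob* at 0.10 to 0.14. For *Cdkn2d*, which hardly varied, they were *mt-Co1*, *Kif13b* and *Unc45a* at 0.01 each. *Cdkn2a* had too few counts for this comparison.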

How the data were processed

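Poly-A-selected RNA of 4 colonoid cultures, 1 per condition, was sequenced in bulk. The authors deposited whole-number counts per gene, which are rounded estimates, since reads were pseudoaligned with kallisto (0.44.0 in the submitters' processing notes, build GRCm38.p6) and summed to genes with tximport. No normalisation or gene filter had been applied.

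The filter was that of the methods, over 10 counts in 2 libraries or more. Counts were divided by DESeq2 1.42.0 size factors, and log2 fold changes were taken after adding a pseudocount of 1. Intervals are exact Clopper-Pearson 95% intervals on the pair of counts, and intervals of a difference between times are normal approximations from the counts. They cover counting error only, and since reads without molecular identifiers can be PCR copies, that error may be larger than they show. With 1 library per condition no p-values were computed and the 2 times were not treated as replicates. "At least 2-fold" refers to these log2 fold changes.

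Levels per kb used the union of exons in GENCODE M21 (GRCm38). Promoter windows came from RefSeq (GRCm38.p6). Alternatives were TMM factors (edgeR 4.0.16), total counts with and without mitochondrial genes, pseudocounts of 5 and 0.5, other filters, a 1.5-fold threshold and the longest transcript. The work ran in R 4.3.3 and Python 3.11.15 (scipy 1.17.1, pandas 2.3.3, matplotlib 3.10.9, numpy 2.4.6). Fold changes and counting intervals at 48 h were checked on simulated counts that had no spread between cultures. The other steps were not checked in this way.

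The 7 genes, the 11 pathway lists and the 9 marker lists were chosen with earlier results of these data known. Named genes were the 7 inhibitors, the kinases and the D and E cyclins, in each list the genes changed at least 2-fold in the same direction at both times besides the 2 whose smaller difference was largest among those of equal sign at 48 h and 72 h, and the 3 genes closest to each inhibitor. Any other gene, markers and *Mki67* and *Trp53* included, was named after its values were seen. Some genes that met these rules are not reported here.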

Additional observations from a re-analysis of the deposited data

Results flagged for a closer look

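*Cdkn1c* and *Cdkn2b* were higher with butyrate at 48 h and lower at 72 h, with both counting intervals leaving out 0 at each time. The change at 72 h minus that at 48 h was −1.72 on the log2 scale for *Cdkn1c* and −1.14 for *Cdkn2b*. With 1 library per condition, the difference between the times was not tested against the spread between cultures. Both genes kept opposite signs at the 2 times under each scaling and pseudocount tried.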

How the results depend on the processing

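The groups share a single replicate number, so that number pairs no samples. A fit with time as the block, which would treat the 2 times as replicates, was not run. Of 140 recomputed changes of single inhibitor genes under other scalings and pseudocounts, 139 stayed inside their counting intervals and 1 moved, *Cdkn1a* between the untreated libraries (0.2981 with total counts, from 0.38), and none changed sign. The numbers higher at both times, lower at both and of opposite direction did not change. A mean of at least 50 normalised counts, which removes *Cdkn2a*, left 1 gene at least 2-fold higher at 48 h (3.93% of all genes tested), 0 at 72 h (2.33%) and 1 between the untreated libraries (0.755%), and gave medians of 0.1322 at 48 h, 0.2936 between the untreated libraries and −0.136, in place of 0.12, between the butyrate libraries. At 1.5-fold, 3 genes were higher and 2 lower at 48 h (13.1% and 8.90% of all genes tested), 1 and 1 at 72 h (9.5% and 8.53%), 3 and 0 between the untreated libraries (6.82% and 5.17%), and 1 and 1 between the butyrate libraries (9.66% and 11.9%). Between the untreated libraries, 1 gene in place of 2 was at least 2-fold higher with total counts (2.25% of all genes tested), also without mitochondrial genes, and 0 with a pseudocount of 5 (1.64%). The cause was not tested. Total counts moved that comparison's median of the members to 0.2981 and of all genes to −0.075, and reversed the 72 h median of the Rb and E2F list to 0.01039. Of 44 recomputed list medians, 43 kept their direction. The butyrate intervals of *Cdkn2c* at 72 h and of *Cdkn2d* at both times included 0, and that of *Cdkn2a* was the widest.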
